A study of Mus musculus with 12 samples.

Results

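The genes described here carry new secretory proteins into the endoplasmic reticulum (ER), trim and glycosylate them there, and package them into vesicles. They are 49 genes chosen by symbol for these roles. The list holds 7 genes of the signal recognition particle (SRP) and its receptor, 6 of the translocon, 4 of the translocon-associated protein (TRAP) complex, 5 of the signal peptidase complex and 8 of the oligosaccharyltransferase. It also holds 10 genes of the COPII coat, 5 cargo receptor and SNARE genes and 4 genes of the COPI coat. Of the 49 members, 48 had a probe under their symbol, and Sec23b was not analysed here. Sec62, a translocon partner, and Sec24a, a COPII subunit, were detected on 0 of 12 arrays, and Rpn1, an oligosaccharyltransferase subunit, on 1 of 6 arrays of each age. The remaining 45 members were measured, among 9379 genes tested, and 44 of them were detected on all 12 arrays. The exception was Sec23a, detected on 5 of the 6 arrays at 50 weeks.

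RNA came from whole submandibular salivary gland of C57BL6J mice aged 50 weeks (6 arrays) or 8 weeks (6 arrays), and was hybridised to Illumina bead arrays. The labels give no treatment or engineered allele in either group, and their sex is not given in the sources used here. This comparison asks what differs in the gland at 50 weeks from the gland at 8 weeks. Since no other age was sampled, growth to maturity and ageing after it cannot be told apart. The array titles number the mice of each age, but no label says that the arrays hold separate animals, so the p-values below reflect only how far these samples spread, and that spread may be technical.

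Proteins made for export are recognised by the SRP as their signal sequence leaves the ribosome, and the SRP receptor brings the ribosome to the Sec61 channel in the ER membrane. As the chain enters, signal peptidase cuts off the signal sequence and the oligosaccharyltransferase attaches a preformed glycan to asparagine residues, while the TRAP complex sits beside the channel. Folded cargo leaves in vesicles coated with COPII, and COPI vesicles return escaped ER proteins and receptors from the Golgi. In the submandibular gland this route supplies the salivary proteins of acinar cells and the kallikreins and growth factors of the granular ducts.

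Mean probe intensity, in the linear units of the scanner, ran from 223 to 302 on the 50-week arrays and from 207 to 324 on the 8-week arrays. The number of probes detected ran from 15318 to 18110 at 50 weeks and from 15321 to 16433 at 8 weeks. The number of arrays limits the precision of every value below. Markers listed for acinar and granular duct cells were present at both ages, with 12 of 12 acinar and 6 of 6 granular duct markers on the array measured. Of markers listed for sublingual mucous cells, 2 of 2 on the array were measured as well. The array numbered 6 at 50 weeks stood apart. Its mean correlation with the others of its age was 0.949, against 0.975 or more for each of the other arrays with its own age. On it, 550 genes (5.86%) lay more than 0.5 below all other 11 arrays on the log2 scale, among them 5 members, and 240 genes lay that far above them, among them 1 member. Results that rest on that array are therefore given with and without it.

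Most of the 45 measured members were somewhat higher at 50 weeks, and 10 (22.2%) passed the threshold of 0.05 for the adjusted p, where 12.5% of all genes tested did. Ssr1, Spcs3, Ddost, Sec24d, Sec31a, Sec61a1, Lman1, Ostc and Dad1 rose, and Srp72 fell. The 9 that rose are 20% of the measured members, against 6.35% of all genes. The 1 that fell is 2.22%, against 6.13% of all genes. The log2 changes, given throughout as 50 weeks minus 8 weeks, were positive for 31 of the 45 members (68.9%) and for 46.5% of all genes, with medians of 0.10 and -0.02. The changes were small, between -0.38 and 0.56, and the 9 rises were 1.22-fold to 1.47-fold. In 11 members, the 10 that passed and Srp19, the values of the 6 arrays at 50 weeks and the 6 at 8 weeks did not overlap, which held for 6.45% of all genes. When arrays were scaled to a common median instead of quantile-normalised, the median log2 change over all genes was 0.10, a shift of 0.12. Under that scaling the members' median was 0.22, and 40 members were positive. Only Ssr1 and Spcs3 then passed, 4.44% of the members, with 4.19% of all genes called.

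**Figure D1:**
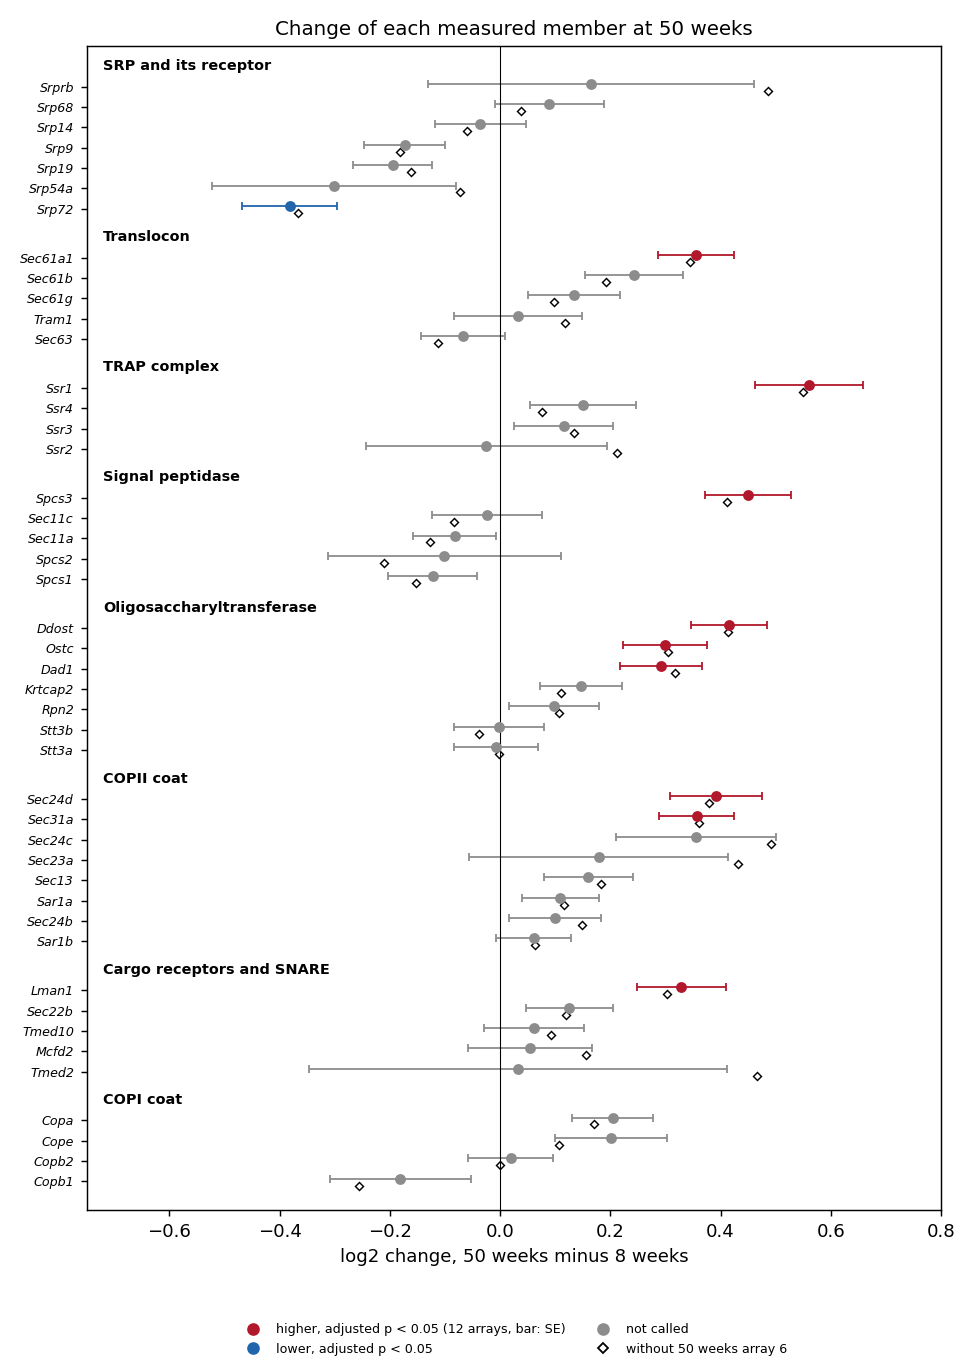
Log2 change (50 weeks minus 8 weeks) of each of the 45 measured members, grouped by role and ordered by size within a role. Filled circles with bars are the change and its standard error over 12 arrays, coloured where the adjusted p was under 0.05, and open diamonds are the change without 50 weeks array 6. All 8 COPII genes lie right of 0, most SRP genes lie left of it, and the diamonds of Srprb, Tmed2, Ssr2, Srp54a and Sec23a lie far from their circles.

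The mean log2 intensity of the 45 members per array was 9.74 ± 0.07 at 50 weeks and 9.64 ± 0.05 at 8 weeks (SD, n = 6 each), a difference of 0.10 ± 0.04 (SE). At 50 weeks it ran from 9.62 to 9.83, and at 8 weeks from 9.56 to 9.69. Thus 5 of the 6 arrays at 50 weeks lay above every array at 8 weeks, and 50 weeks array 6 lay at 9.62, inside the 8-week range. By role, the difference between the mean log2 intensities was 0.21 for COPII, 0.20 for TRAP, 0.18 for the oligosaccharyltransferase, 0.14 for the translocon, 0.12 for cargo receptors and SNARE, 0.06 for COPI and 0.02 for signal peptidase. It was -0.12 for the SRP and its receptor. All 6 arrays at 50 weeks lay above every array at 8 weeks for the oligosaccharyltransferase and for the translocon. For COPII, TRAP and the cargo receptors this held for 5 of 6, with 50 weeks array 6 as the exception each time. Scaled to the same median, the difference of the SRP mean was -0.003, and every other role mean was positive. Without 50 weeks array 6 the signal peptidase difference was -0.03, that of COPI 0.005, and that of the SRP -0.05, while that of the cargo receptors and SNARE was 0.23, that of COPII 0.27 and that of TRAP 0.24. No test was made on these means, since the members are a chosen list. In whole-gland RNA, fewer cells of a type and less RNA per cell cannot be told apart.

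**Figure D2:**
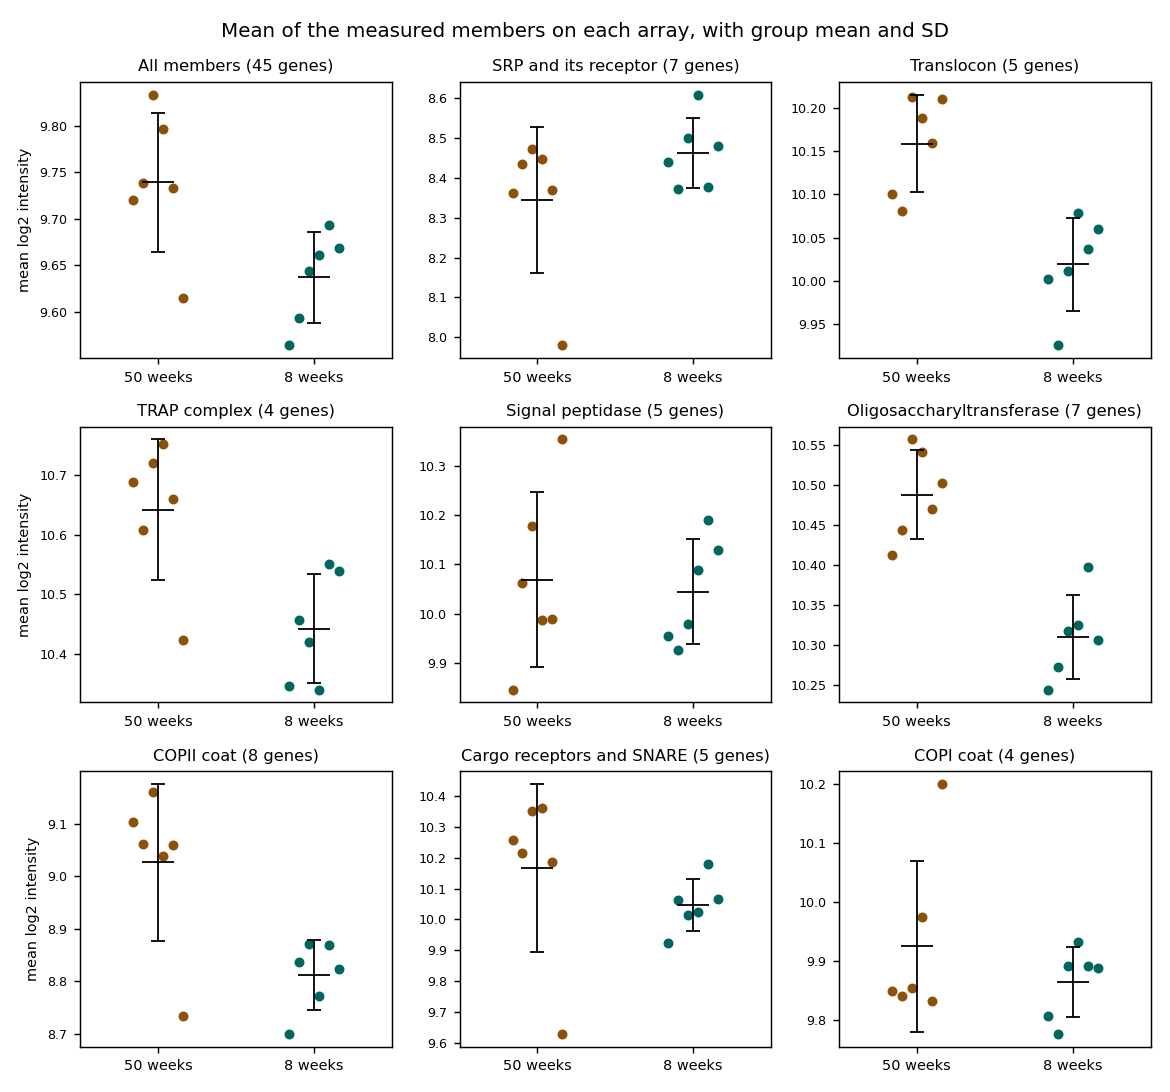
Mean log2 intensity of the measured members on each array, for all members and for each of the 8 roles, with the 50-week arrays on the left and the 8-week arrays on the right of each panel. Points are arrays, and the bars show the mean and SD of 6 arrays. The oligosaccharyltransferase and translocon panels show no overlap between the ages, and the low point at 50 weeks in the SRP, TRAP, COPII and cargo receptor panels is array 6.

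Promoters are shown for members that moved and for members that did not, because many genes of this pathway are switched on together by the ER stress factors XBP1 and ATF6. Those shown do not represent the members evenly. All of them except Srp72 hold the motif GACGTG, described below, which 11 of the 39 members with a promoter hold. Sequences came from RefSeq (assembly GRCm38.p6), where 39 of the 49 members had a window of 300 bases, from 250 before the gene start to 50 after it. The table has no entry for Srp19, Srp68, Sec61a1, Tram1, Ssr2, Sec11c, Spcs3, Ostc, Tmed2 and Lman1. Each line below holds the 150 bases before the start, 5′ to 3′ on the strand of the gene. Capitals mark the letters GACGTG and CCACGT on either strand, and adjoining matches run together. The sites are chr13:37994209-37994358 on the minus strand for Ssr1, chr3:123267346-123267495 on the plus strand for Sec24d and chr14:54253930-54254079 on the minus strand for Dad1, which rose. Srp72, which fell, has chr5:76974551-76974700 on the plus strand. Of members that did not pass, the sites are chr14:20674171-20674320 for Sec24c, chr10:42761346-42761495 for Sec63 and chr9:98563581-98563730 for Copb2, all on the plus strand.
Ssr1: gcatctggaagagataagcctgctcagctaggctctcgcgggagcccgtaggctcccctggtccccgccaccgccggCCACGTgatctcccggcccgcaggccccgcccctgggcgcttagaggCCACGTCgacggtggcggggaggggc
Sec24d: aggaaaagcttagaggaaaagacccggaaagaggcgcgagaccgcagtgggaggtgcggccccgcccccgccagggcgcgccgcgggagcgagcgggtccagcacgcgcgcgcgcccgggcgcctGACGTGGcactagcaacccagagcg
Dad1: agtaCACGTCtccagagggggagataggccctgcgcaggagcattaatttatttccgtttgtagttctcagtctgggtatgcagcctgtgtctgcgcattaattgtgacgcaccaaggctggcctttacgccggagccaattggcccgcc
Srp72: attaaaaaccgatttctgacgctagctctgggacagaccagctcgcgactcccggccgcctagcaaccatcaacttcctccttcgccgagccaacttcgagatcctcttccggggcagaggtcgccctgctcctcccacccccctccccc
Sec24c: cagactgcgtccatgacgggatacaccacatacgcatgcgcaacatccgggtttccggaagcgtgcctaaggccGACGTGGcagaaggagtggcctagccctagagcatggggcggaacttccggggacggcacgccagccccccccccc
Sec63: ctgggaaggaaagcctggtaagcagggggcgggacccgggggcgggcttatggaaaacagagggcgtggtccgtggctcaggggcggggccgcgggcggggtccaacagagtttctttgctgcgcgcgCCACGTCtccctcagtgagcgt
Copb2: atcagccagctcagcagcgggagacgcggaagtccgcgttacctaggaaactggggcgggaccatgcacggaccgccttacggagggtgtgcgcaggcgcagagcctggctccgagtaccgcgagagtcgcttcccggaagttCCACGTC

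GACGTG, the core of a sequence that XBP1 and ATF6 recognise, stood in the windows of 11 of the 39 members (28.2%), against 8.10% of 17492 protein-coding genes in the same table. Its 11 holders were Ssr1, Sec24d and Dad1, which rose, and Sec24c, Sec23a, Sec13, Sar1a, Sec63, Srp14, Copb1 and Copb2, which did not pass the threshold. CCACGT, which overlaps GACGTG on the opposite strand wherever GACGTGG occurs, stood in 17 of 39 (43.6%), against 10.3% of genes. Of the 6 changed members in the table, 3 held GACGTG (Dad1, Sec24d and Ssr1) and 3 held CCACGT (Sec24d, Sec31a and Ssr1). Ddost, which rose, and Srp72, which fell, held neither. Among the 29 measured members that did not pass, 8 held GACGTG and 14 held CCACGT, so both motifs were present in members that moved and in members that did not. In Ssr1 the 2 motifs together span 7 letters that begin 26 bases before the start, and CCACGT occurs again from 73 bases before it. In Sec24d such a run begins 25 bases before the start, in Sec63 it begins 22 before it, and in Copb2 it ends with the base just before it. The longer ER stress element, CCAAT then 9 bases then CCACG, was in 0 of 39 members and 0.166% of genes. Its second form, ATTGG then 1 base then CCACG, was in 1 member, Krtcap2, and in 0.0629% of genes. Both strands were searched for each motif. Both hexamers contain CG, and the base composition of the other promoters was not matched to that of the members. A match describes letters in the window and shows no binding.

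The oligosaccharyltransferase had the most members past the threshold, 3 of 7 measured (42.9%), all of them higher. Of all genes, 12.5% passed and 6.35% passed as higher. With arrays scaled to the same median, 0 of the 7 passed. Ddost, the membrane-anchored subunit OST48, had a log2 intensity between 9.38 and 9.61 at 50 weeks (median 9.58), against 9.05 to 9.25 at 8 weeks (median 9.13). Every array at 50 weeks lay above every array at 8 weeks, and Ddost had the smallest adjusted p of the members (probe ILMN_2941677, log2 change 0.41 ± 0.07 (SE), 1.33-fold, adjusted p = 0.00184). Ostc, a subunit that links the STT3A form of the enzyme to the channel, lay between 10.31 and 10.51 at 50 weeks (median 10.37), against 9.91 to 10.23 at 8 weeks (median 10.11). The groups did not overlap for Ostc either (log2 change 0.30 ± 0.08, adjusted p = 0.0209). Without 50 weeks array 3 its log2 change was 0.26 and it no longer passed. Dad1, a small membrane subunit first named as a defender against cell death, lay between 10.71 and 10.99 at 50 weeks (median 10.85), against 10.44 to 10.66 at 8 weeks (median 10.56), again without overlap. Its log2 change was 0.29 ± 0.07 (adjusted p = 0.0209), and without 50 weeks array 4 it was 0.27 and no longer passed. A second Dad1 probe, detected on 4 of 6 arrays at 50 weeks and 2 of 6 at 8 weeks, changed by 0.07 on the log2 scale, and the mean of both by 0.18 (adjusted p = 0.198).

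The catalytic subunits of the oligosaccharyltransferase did not pass. Stt3a, which acts as proteins enter through the channel, lay between 6.47 and 6.76 at 50 weeks (median 6.71), against 6.57 to 6.81 at 8 weeks (median 6.70). Stt3b, which glycosylates sites that were skipped, lay between 11.33 and 11.69 at 50 weeks (median 11.52), against 11.34 to 11.65 at 8 weeks (median 11.48). For both the ages overlapped almost wholly, with log2 changes of -0.01 ± 0.08 for Stt3a (95% confidence interval -0.17 to 0.16) and -0.002 ± 0.08 for Stt3b (-0.18 to 0.17). With arrays scaled to the same median these were 0.13 and 0.14. Rpn2, a structural subunit, had a log2 change of 0.10 ± 0.08, and Krtcap2, an accessory subunit, one of 0.15 ± 0.07. Their adjusted p values were 0.478 and 0.225. The 3 rises were thus those of non-catalytic subunits, and whether they differ from the change of Stt3a or Stt3b was not tested.

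In the translocon, 1 of 5 measured genes passed. Sec61a1, which encodes the pore of the channel, lay between 9.74 and 9.93 at 50 weeks (median 9.92), against 9.43 to 9.63 at 8 weeks (median 9.51). The groups did not overlap (probe ILMN_3162476, log2 change 0.35 ± 0.07, 1.28-fold, adjusted p = 0.00498). A second Sec61a1 probe changed by 0.05, and the mean of both probes by 0.20 (adjusted p = 0.0877). Sec61b, the beta subunit, had values from 6.97 to 7.32 at 50 weeks (median 7.01) and from 6.69 to 7.06 at 8 weeks (median 6.80), with a log2 change of 0.24 ± 0.09 that did not pass (adjusted p = 0.0896). Sec61g, the gamma subunit, had a log2 change of 0.13 ± 0.08. Tram1, a membrane protein that helps some signal sequences into the channel, had values from 11.71 to 12.39 at 50 weeks (median 12.20) and from 11.92 to 12.39 at 8 weeks (median 12.07). It spread widely at both ages and overlapped (log2 change 0.03 ± 0.12, adjusted p = 0.894). The lowest Tram1 value was on 50 weeks array 6. Without that array the SD of Tram1 at 50 weeks was 0.12, against 0.24 with it. Its log2 change was then 0.12 ± 0.09 (adjusted p = 0.361). Sec63, which recruits the chaperone BiP to the channel, had 3 kept probes with log2 changes between -0.07 and -0.03, none past the threshold, and its used probe turned to 0.04 when arrays were scaled to the same median. That probe was high on 50 weeks array 6, and without that array it had -0.11 ± 0.06 (adjusted p = 0.185).

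Of the TRAP complex, Ssr1 (TRAP alpha) rose. It lay between 7.30 and 7.54 at 50 weeks (median 7.49), against 6.58 to 7.07 at 8 weeks (median 6.93). Its lowest value at 50 weeks thus exceeded its highest at 8 weeks (probe ILMN_2516383, log2 change 0.56 ± 0.10, 1.47-fold, adjusted p = 0.00251). The size depends on the background step: the log2 change of this probe was 0.32 with no background correction and 0.36 in the series matrix values, both past the threshold. Of 4 Ssr1 probes on the array, 2 were kept, and the rest were detected on 0 of 12 arrays. The other kept Ssr1 probe changed by 0.04, and the mean of both kept probes gave 0.30 (adjusted p = 0.106). The call thus rests on 1 probe. Ssr4 (TRAP delta) had values from 12.74 to 13.29 at 50 weeks (median 12.85) and from 12.61 to 12.91 at 8 weeks (median 12.76), with log2 changes of 0.15 and 0.11 on its 2 probes, neither past the threshold. The highest value of Ssr4 was on 50 weeks array 6, and without that array its log2 change was 0.08 ± 0.07. Ssr3 (TRAP gamma) had a log2 change of 0.12 ± 0.09. Ssr2 (TRAP beta) lay at 9.05 on 50 weeks array 6, while the other 5 arrays at 50 weeks had 10.37 to 10.64 and those at 8 weeks 10.05 to 10.44. With all arrays its log2 change was -0.03 ± 0.22 (adjusted p = 0.96), and without array 6 it was 0.21 ± 0.09 (adjusted p = 0.085).

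Signal peptidase also had 1 of 5 members past the threshold. Spcs3, a subunit that supports the catalytic activity of the complex, lay between 9.90 and 10.18 at 50 weeks (median 9.98), against 9.39 to 9.73 at 8 weeks (median 9.54). The ages did not overlap (probe ILMN_2787085, log2 change 0.45 ± 0.08, 1.37-fold, adjusted p = 0.00249). Its second probe changed by 0.27 and did not pass when all kept probes were tested singly (adjusted p = 0.0848). Spcs3 passed under each of the 21 other settings tried. The other 4 had log2 changes at or just below 0, and none passed. For the catalytic subunits these were -0.08 ± 0.08 for Sec11a (95% confidence interval -0.24 to 0.08) and -0.02 ± 0.10 for Sec11c (-0.24 to 0.19). Without 50 weeks array 6, where Sec11a was high, its log2 change was -0.13 ± 0.06 (adjusted p = 0.128). Spcs1, a small accessory subunit, had -0.12 ± 0.08, with values from 11.65 to 12.03 at 50 weeks (median 11.88) and from 11.88 to 12.13 at 8 weeks (median 11.98). Spcs2 had -0.10 ± 0.21 and the widest spread of the complex, from 5.95 to 7.08 at 50 weeks and from 6.23 to 7.19 at 8 weeks. Scaled to the same median, all 4 had small positive changes, of 0.03 to 0.09, and in the series matrix values Sec11c alone of the 4 was above 0, at 0.01.

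Of the SRP and its receptor, 1 of 7 genes passed, and it fell. The 7 log2 changes lay on both sides of 0, and 5 were negative. Srp72, a protein of the part of the particle that binds the signal sequence and the receptor, lay between 7.79 and 8.26 at 50 weeks (median 8.10), against 8.38 to 8.61 at 8 weeks (median 8.45). Every array at 50 weeks was below every array at 8 weeks (probe ILMN_2701837, log2 change -0.38 ± 0.09, 1.30-fold lower, adjusted p = 0.0118). Its partner Srp68 had a log2 change of 0.09 ± 0.10 (adjusted p = 0.613). Srp19, which helps assemble the particle, lay between 7.06 and 7.34 at 50 weeks (median 7.22), against 7.35 to 7.53 at 8 weeks (median 7.40). Its groups did not overlap, but its log2 change of -0.20 ± 0.07 missed the threshold (adjusted p = 0.0899). Srp9, which with Srp14 forms the domain that slows translation, had values from 9.93 to 10.05 at 50 weeks (median 9.96) and from 9.93 to 10.28 at 8 weeks (median 10.16). Srp9 had log2 changes of -0.17 and -0.15 on its 2 probes (adjusted p = 0.144 for the first), and Srp14 had -0.04 ± 0.08, which was 0.07 when scaled to the same median.

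Srp54a, the GTPase that holds the signal sequence, and Srprb, the membrane anchor of the SRP receptor, were both far down on 50 weeks array 6. There Srp54a lay at 6.05, while the other arrays at 50 weeks had 7.20 to 7.57 and those at 8 weeks 7.25 to 7.84. Its log2 change was -0.30 ± 0.22 with that array and -0.07 ± 0.11 without it, and neither passed. Srprb lay at 6.85 on that array, at 8.68 to 8.95 on the others at 50 weeks and at 7.99 to 8.67 at 8 weeks. Srprb had a log2 change of 0.17 ± 0.30 (adjusted p = 0.775) with array 6. Without it the log2 change was 0.49 ± 0.12 (adjusted p = 0.0105), and the ages did not overlap. The second Srprb probe changed by -0.08.

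All 8 measured genes of the COPII coat had positive log2 changes, as they did in the series matrix values, and 2 passed. Sec24d, an adaptor that picks cargo for the vesicle, lay between 8.36 and 8.82 at 50 weeks (median 8.53), against 8.05 to 8.29 at 8 weeks (median 8.17). Its groups did not overlap (probe ILMN_1243179, log2 change 0.39 ± 0.08, 1.31-fold, adjusted p = 0.00846). Sec31a, the outer cage protein, lay between 9.17 and 9.44 at 50 weeks (median 9.35), against 8.93 to 9.03 at 8 weeks (median 8.98), also without overlap. That probe of Sec31a, ILMN_2705966, gave a log2 change of 0.36 ± 0.07 (adjusted p = 0.00424), but the second probe, ILMN_2765024, changed by -0.33, and the mean of both by 0.01 (adjusted p = 0.929). The direction of Sec31a thus differed between its probes. Sec13, which pairs with Sec31 in the cage, had values from 10.71 to 10.91 at 50 weeks (median 10.83) and from 10.48 to 10.90 at 8 weeks (median 10.65), with a log2 change of 0.16 ± 0.08 (adjusted p = 0.222).

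Among the other COPII genes, Sec24c and Sec23a turned on 50 weeks array 6. Sec24c, another cargo adaptor, lay at 8.50 on that array, at 9.24 to 9.48 on the others at 50 weeks and at 8.60 to 9.05 at 8 weeks. Its log2 change was 0.35 ± 0.15 with array 6 (adjusted p = 0.128) and 0.49 ± 0.08 without it (adjusted p = 0.00159), then without overlap. Sec23a, which binds the GTPase SAR1, lay at 4.34 on array 6, at 5.57 to 5.97 on the others at 50 weeks and at 5.08 to 5.76 at 8 weeks. Sec23a had a log2 change of 0.18 ± 0.23 (adjusted p = 0.676) with all arrays. Without array 6 it was 0.43 ± 0.12 (adjusted p = 0.0193), and the ages still overlapped. Sec24b had a log2 change of 0.10 ± 0.08, and the GTPases that start coat assembly had 0.11 ± 0.07 (Sar1a) and 0.06 ± 0.07 (Sar1b), none past the threshold.

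**Figure D3:**
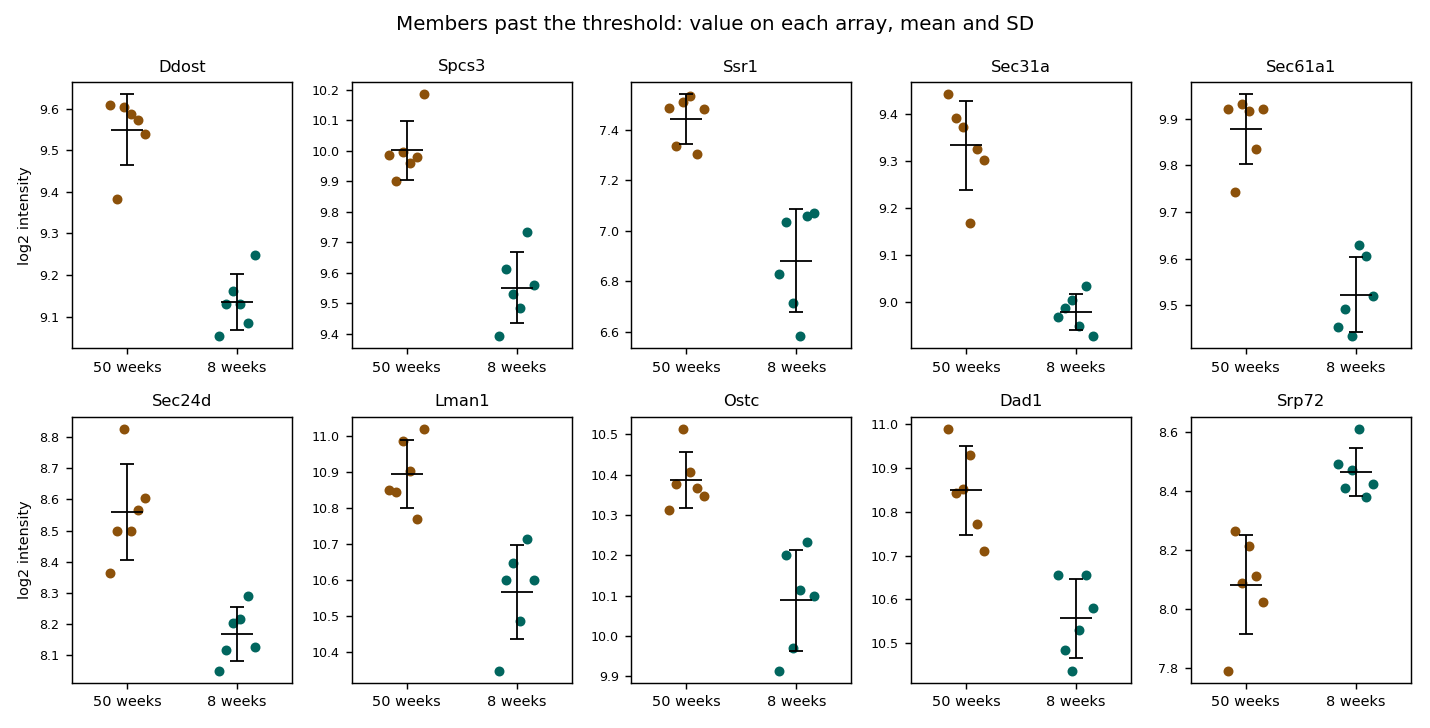
Log2 intensity on each array of the 10 members past the threshold, with the 50-week arrays on the left and the 8-week arrays on the right of each panel. Points are arrays, bars show the mean and SD of 6 arrays, and each panel has its own axis, which does not start at 0. In all 10 panels the 2 ages do not overlap, and Srp72 is the one panel with the 50-week arrays lower.

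Paralogs of the pathway were set side by side by taking the difference of their log2 changes, with a 2-sided exact permutation test over all 924 arrangements of the arrays and adjustment over the 6 pairs. Sec24d exceeded Sec24b by 0.29 ± 0.09 (exact p = 0.013, adjusted p = 0.0779), and Sec24c exceeded Sec24b by 0.26 ± 0.12 (exact p = 0.0649, adjusted p = 0.195). For Sec24d against Sec24c the difference was 0.04 ± 0.18, for Sar1b against Sar1a -0.05 ± 0.07, for Stt3b against Stt3a 0.01 ± 0.06 and for Sec11c against Sec11a 0.06 ± 0.10. Their adjusted p values ran from 0.828 to 0.942, so none of the 6 pairs passed, which does not show that the paralogs moved alike. Without 50 weeks array 6, where Sec24c was low, the log2 changes were 0.49 for Sec24c, 0.38 for Sec24d and 0.15 for Sec24b. Sec24d then no longer exceeded Sec24c, and the pairs were not tested without that array.

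Lman1, the lectin ERGIC-53 that ferries glycoproteins out of the ER, was the cargo receptor that rose. It lay between 10.77 and 11.02 at 50 weeks (median 10.88), against 10.35 to 10.71 at 8 weeks (median 10.60), without overlap (probe ILMN_1212637, log2 change 0.33 ± 0.08, 1.26-fold, adjusted p = 0.0169). Mcfd2, the soluble partner of Lman1 in the transport of coagulation factors, lay at 10.60 on 50 weeks array 6, at 11.09 to 11.32 on the others at 50 weeks and at 10.93 to 11.17 at 8 weeks. Its log2 change was 0.05 ± 0.11 with that array and 0.16 ± 0.07 without it (adjusted p = 0.11), and neither passed. Tmed2, a p24 cargo receptor, departed furthest on array 6, at 6.46, against 8.78 to 9.27 on the other arrays at 50 weeks and 8.51 to 8.70 at 8 weeks. With all arrays the log2 change of Tmed2 was 0.03 ± 0.38 (adjusted p = 0.972), and without array 6 it was 0.47 ± 0.09 (adjusted p = 0.00321), with no overlap. Its p24 partner Tmed10 had a log2 change of 0.06 ± 0.09, and Sec22b, a SNARE of ER and Golgi membranes, one of 0.13 ± 0.08. Neither passed.

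Of the 4 COPI genes 0 passed in the limma fit with 1 probe a gene, and 1, Copa, had an unadjusted p under 0.05 and passed in the series matrix values (adjusted p = 0.0399). Copa, the alpha subunit, lay between 10.33 and 10.62 at 50 weeks (median 10.44), against 10.18 to 10.37 at 8 weeks (median 10.24), with a log2 change of 0.20 ± 0.07 (adjusted p = 0.0826). Copb2, which forms the outer layer with Copa, had values from 11.53 to 11.80 at 50 weeks (median 11.71) and from 11.56 to 11.80 at 8 weeks (median 11.65), and its ages overlapped wholly (log2 change 0.02 ± 0.08). Copb1, of the inner layer, had -0.18 ± 0.13 (adjusted p = 0.397). Cope, the epsilon subunit, stood at 12.00 on 50 weeks array 6, at 11.39 to 11.47 on the other arrays at 50 weeks and at 11.25 to 11.44 at 8 weeks. That probe had a log2 change of 0.20 ± 0.10 (adjusted p = 0.223) with array 6 and 0.11 ± 0.06 without it (adjusted p = 0.196). The 3 other Cope probes had 0.34 to 0.40, and 1 of them, ILMN_2630769, passed when all kept probes were tested singly (adjusted p = 0.0427).

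**Figure D4:**
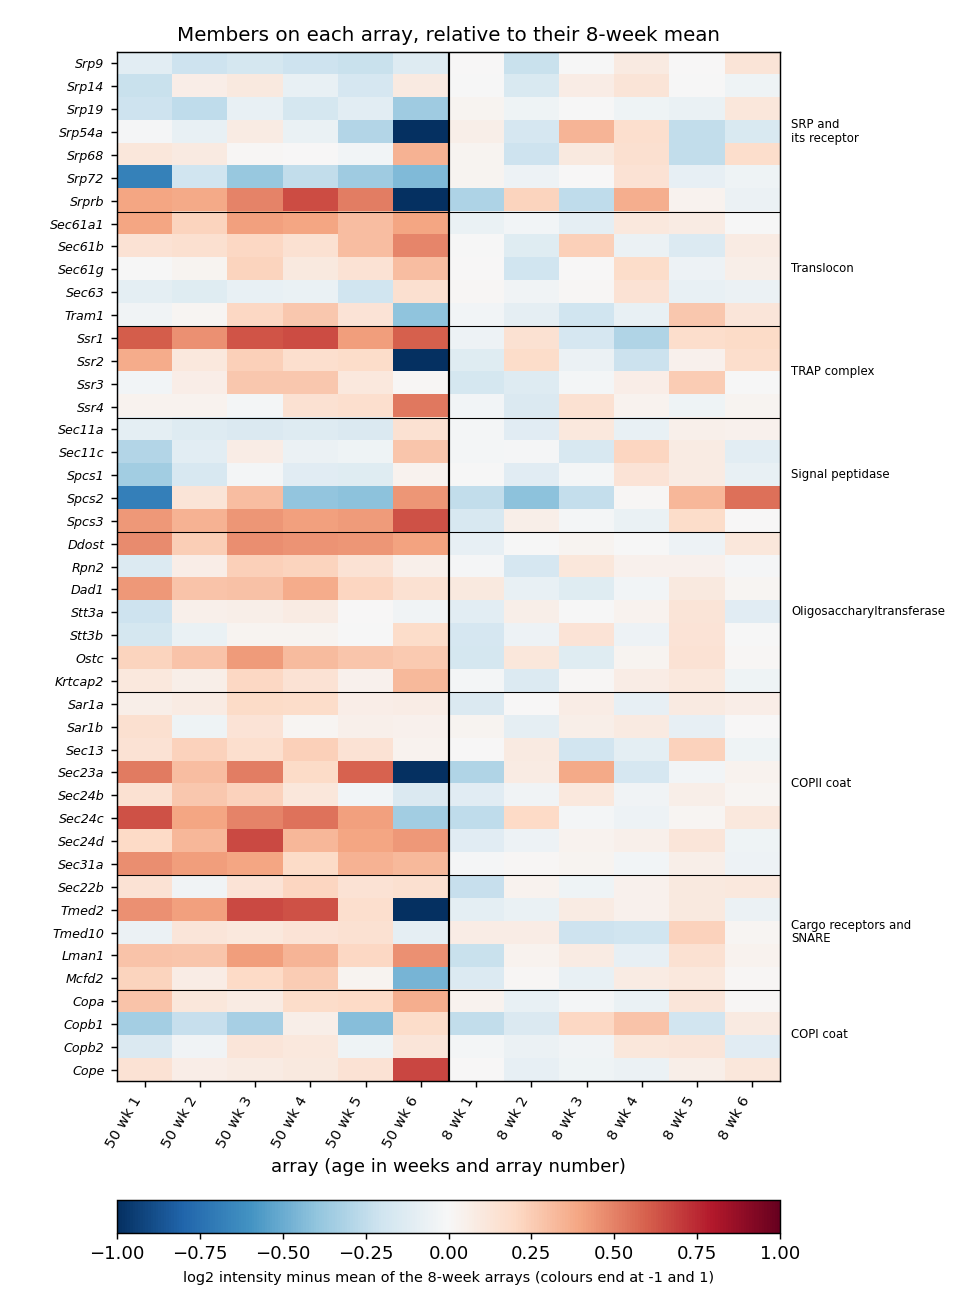
Each measured member (rows, by role) on each array (columns, 50 weeks left of 8 weeks), as log2 intensity minus the mean of that gene on the 8-week arrays, with colours ending at -1 and 1. The 50-week columns are mostly red in the oligosaccharyltransferase and COPII rows and mostly blue in the SRP rows, and column 50 wk 6 alone holds the darkest blue cells, in Srp54a, Srprb, Ssr2, Sec23a and Tmed2.

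Leaving out 50 weeks array 6 gave 14 changed members of 45 (31.1%), 13 higher and 1 lower. The same fit called 25.03% of all 9257 genes, 11.3% higher and 13.7% lower, so the share of members called lay nearer to the background than with all arrays, and the share of members higher (28.9%) stayed above it. All 10 members named above were among the 14, with Srprb, Sec24c, Tmed2 and Sec23a added. The ages did not overlap in 14 members (31.1%), against 13.6% of all genes.

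Other genes of the secretory route, 139 on the array in 6 lists, were mostly not past the threshold. Of 121 measured, 10 rose and 1 fell (9.09% called, against 12.5% of all genes), and their median log2 change was 0.09. By list, the share that rose was 15% for the N-glycan genes, 6.25% for other COPII export genes and 13.04% for other COPI genes, against 6.35% of all genes. Of genes that make and trim the N-glycan precursor, 3 of 20 rose. They were the mannosyltransferases Alg12 (0.35 ± 0.09, adjusted p = 0.0256) and Alg3 (0.43 ± 0.12, adjusted p = 0.0257), and the glucosidase Mogs, which removes the outermost glucose (0.35 ± 0.10, adjusted p = 0.0366). With no background correction Alg12 had 0.21 and Alg3 0.25, both past the threshold. Of other COPII export genes, 2 of 32 rose. These were Sec16a, the scaffold of ER exit sites (0.38 ± 0.09, adjusted p = 0.0146), and Uso1, the vesicle tether p115 (0.27 ± 0.07, adjusted p = 0.0159), both without overlap between the ages. Among other COPI genes, 3 of 23 rose. Arfgap1, which uncoats COPI vesicles, changed by 0.51 ± 0.09 (adjusted p = 0.00328), the coat subunit Copg1 by 0.41 ± 0.11 and the Golgi SNARE Gosr1 by 0.32 ± 0.09 (0.21 with no background correction). In targeting and membrane insertion 0 of 17 passed in the limma fit and 1 had an unadjusted p under 0.05. The smallest adjusted p was that of Emc10, of the ER membrane complex (0.22 ± 0.07, adjusted p = 0.0534).

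Of granule exocytosis and clathrin genes, 1 of 22 passed. It was Sytl4 (granuphilin), a Rab27 effector that docks secretory granules, which lay between 5.16 and 5.54 at 50 weeks (median 5.25), against 5.74 to 6.46 at 8 weeks (median 6.08). Sytl4 fell without overlap (log2 change -0.79 ± 0.12, adjusted p = 0.000954), by a size that depends on the background step: it was -0.27 with no background correction and -0.30 in the series matrix values, both past the threshold. Of transcription factors of the secretory programme, 2 of 7 rose. Bhlha15 (Mist1), which shapes the secretory apparatus of acinar cells, lay between 11.21 and 11.62 at 50 weeks (median 11.58), against 10.81 to 11.42 at 8 weeks (median 11.11), and changed by 0.41 ± 0.11 (adjusted p = 0.0309). Atf6b, a relative of ATF6, changed by 0.33 ± 0.09 (adjusted p = 0.0335). Xbp1, which encodes the XBP1 named above, did not pass, with a log2 change of -0.03 ± 0.08 (adjusted p = 0.836). Its mean was 11.97 at 50 weeks and 12.00 at 8 weeks. Sec16a, Uso1, Arfgap1 and Sytl4 passed with any 1 array left out. With arrays scaled to the same median Sec16a (adjusted p = 0.0805) and Uso1 (adjusted p = 0.174) no longer passed, nor did Arfgap1 when its probes were averaged (log2 change 0.27, adjusted p = 0.0749). The other 7 each lost the call without at least 1 of the 50 weeks arrays 1 to 5 or the 8 weeks arrays 1, 2, 3, 4 and 6. The count of 11 became 4 without 50 weeks array 4 or 8 weeks array 4, 6 to 7 without each of the arrays 1, 2, 3 and 5 at 50 weeks or 1, 3 and 6 at 8 weeks, and 35 without 50 weeks array 6. The last is 28.9% of the 121, where that fit called 25.03% of all genes, and the fits with 4 to 7 called 8.62% to 9.77% of all genes. In the fit without 50 weeks array 6, N-glycan genes had 8 higher and 0 lower of 20. Other COPII export genes had 8 and 1 of 32, and other COPI genes 8 and 1 of 23. The transcription factors had 4 and 0 of 7, targeting genes 1 and 2 of 17, and granule and clathrin genes 1 and 1 of 22. That fit called 11.3% of all genes higher and 13.7% lower.

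Markers of other cell types moved with age in the same arrays. Of B and plasma cell markers, 3 of 5 measured (of 9 on the array) were higher. The summed linear level of those measured ran from 366 to 980 at 50 weeks and from 209 to 332 at 8 weeks. Plasma cells are themselves rich in this machinery. The 3 were Mzb1, Fcrla and Pou2af1, detected on 6 of 6 arrays at 50 weeks but on 2, 2 and 1 of 6 at 8 weeks. They passed the detection filter through the 50-week arrays, so that filter favoured higher calls here. The plasma cell chaperone Mzb1 had a log2 change of 2.97, from an 8-week mean near the detection limit (4.91). Tnfrsf17 and Prdm1, which define plasma cells, were undetected on every array. Macrophage and dendritic cell markers were higher for 6 of 7 measured (1691 to 2633 at 50 weeks, 992 to 2048 at 8 weeks). The 2048 was on 8 weeks array 2, with at most 1302 on the other 8-week arrays. That array also had the highest adipocyte (1958, 2 measured markers) and skeletal muscle (529, 1 measured marker) levels, against at most 494 and 77 elsewhere. T and NK cell markers were higher for 3 of 5 (288 to 524 at 50 weeks, 130 to 322 at 8 weeks), with Cd8a undetected. Of these 3, Cd3g was detected on 6 of 6 arrays at 50 weeks and on 2 of 6 at 8 weeks. Myoepithelial and smooth muscle markers were higher for 6 of 6 (13700 to 15660 at 50 weeks, 9738 to 12246 at 8 weeks), with Cnn1 undetected. Fibroblast markers were lower for 4 of 7 and higher for 1. In the lists for secretory cells, 1 of 12 acinar markers was higher (Bhlha15) and 1 of 6 granular duct markers lower (Klk1). Of sublingual mucous markers, 0 of 2 passed. The summed acinar level ran from 176734 to 248867 at 50 weeks and from 176448 to 254043 at 8 weeks. That sum rests mostly on the brightest probes, such as Dcpp2 (mean 15.23, SD 0 at 50 weeks), and says little of dimmer markers. Amy1 and Smr3a spread widely within each age (SD 2.63 and 4.00 at 50 weeks, 2.58 and 2.81 at 8 weeks). The part of these cell types in the members' changes was not tested.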

How the data were processed

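Per the labels' protocols, total RNA was extracted with Trizol, cleaned with DNase I treatment, and labelled as biotinylated cRNA. The deposited data give a linear probe intensity for 45281 probes on each array and, per the file headers, a detection p-value beside it. The series matrix deposited by the authors holds the same intensity values times 1 factor per array. The scanner, its software and the slides are not given in these sources. Intensities were background-corrected from the detection p-values and quantile-normalised (neqc, offset 16) with limma 3.58.1 in R 4.3.3, with statmod 1.5.0 and version 1.17.8 of data.table, giving log2 values of the deposited intensity. Probes with a detection p under 0.05 on at least 6 of 12 arrays were kept, 16254 in all. Symbols came from the array's annotation, where 34885 probes had 1 symbol, 18 several and 10378 none. The brightest kept probe stood for each of 9379 genes, and 17 members had more than 1 kept probe. Ages were compared 2-sided with lmFit and eBayes of limma, and p-values were adjusted over all genes tested (Benjamini-Hochberg). Named were all members past the threshold, those with the largest change or highest signal in each role, paralog pairs, and up to 3 genes with the smallest adjusted p in each pathway list. Xbp1 was named besides because of the promoter motifs. The members and lists were chosen with earlier results of these data known, so their counts are descriptions. Alternatives covered background, scaling, series matrix values, filters, probe choice, array weights, arrays left out and a replicate block.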

Additional observations from a re-analysis of the deposited data

Results flagged for a closer look

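In each age, the values of every measured member and of the 9 means were checked for a single array far from the other 5, which chance finds in about 1 of 20 groups. Of 108 groups, 17 had such an array, 15 of them 50 weeks array 6 and 2 of them 50 weeks array 2. On array 6 the low values were 6.05 for Srp54a, 6.85 for Srprb, 9.05 for Ssr2, 4.34 for Sec23a, 8.50 for Sec24c, 6.46 for Tmed2 and 10.60 for Mcfd2. The means of the SRP and its receptor (7.98), of COPII (8.74) and of the cargo receptors and SNARE (9.63), which contain these genes, were low there too. The high values on the same array were 10.06 for Sec63, 13.29 for Ssr4, 10.92 for Sec11a, 10.18 for Spcs3 and 12.00 for Cope. On 50 weeks array 2, Ddost (9.38) and Sec22b (9.51) were low, although Ddost there still exceeded its highest 8-week value of 9.25. No array at 8 weeks stood out in this way for any member.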

How the results depend on the processing

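Scaling each array to the same median left 2 changed members (Spcs3 and Ssr1, 2 higher and 0 lower, 4.44%) and 2 changed other pathway genes (1.65%). That fit called 4.19% of all genes, and the difference in the member mean was 0.23. Array weights gave 15 changed members (33.3%), 2 of them lower, and 33 other pathway genes (27.3%), with 27.6% of all genes called. No background correction gave 19 such genes (15.7%, against 13.9% of all genes). The array with the highest adipocyte and skeletal muscle marker levels was 8 weeks array 2. Leaving out 8 weeks array 2 and 50 weeks array 6 together gave 16 members (14 higher, 2 lower, 35.6%) and 35 other pathway genes (28.9%), against 27.5% of all genes. With any 1 array left out, changed members ran from 9 to 14 (8 to 13 higher, 1 to 2 lower), other pathway genes from 4 to 35 and the difference in the member mean from 0.08 to 0.13. The shares ran from 20% to 31.1% of members and from 3.31% to 28.9% of other pathway genes. Those fits called from 8.62% to 25.03% of all genes. Nothing in the labels says that a replicate number pairs arrays across ages; correlations of same-numbered arrays ran from -0.01 to 0.30, and 3 of 12 arrays correlated best with their own number. With the replicate block 8 members (7 higher, 1 lower, 17.8%) and 4 other pathway genes (3.31%) passed, against 9.71% of all genes. Dad1, Ostc and Uso1 were among those that did not pass. Averaging the probes of a gene gave 7 changed members (6 higher, 1 lower, 15.6%, against 12.5% of all genes). Sec61a1, Ssr1, Dad1 and Sec31a no longer passed, and the 7 include a member that did not pass in the main fit. Ssr2 turned positive with the same median (0.088), the series matrix (0.024), array weights (0.18) and without both arrays (0.25), and with 1 array left out ran from -0.11 to 0.21. Tmed2 ran from -0.093 to 0.466 with 1 array left out. Spcs3 passed in all 21 alternatives, and Srp72, Ddost, Sec24d and Lman1 in all except the same-median scaling. Under that scaling Sec61a1, Sec31a, Dad1 and Ostc also lost their calls. The cause of these shifts was not tested. Sec23a, detected on 5 of 6 arrays at 50 weeks, lies near the detection limit, where signal over background limits its precision.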
